A study of Mus musculus with 6 samples.

Results

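Mitosis is the part of the cell cycle in which a cell separates its copied chromosomes, and the genes described here encode the machinery that does so. Cyclin-dependent and Aurora and Polo kinases start and order the steps, kinetochores tie chromosomes to the microtubules of the spindle, and motor proteins of the kinesin family build and move the spindle. The spindle checkpoint holds back the anaphase-promoting complex until each chromosome is attached, after which cohesin is cut and the cell divides. Most of these genes are transcribed mainly in G2 and M phase, so their combined level in a tissue is often read as a sign of how many cells are dividing. In the ovary, granulosa cells of growing follicles divide in response to follicle-stimulating hormone.

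The members were 44 genes chosen by name, with earlier results of these data known. Their signals were read from 1 probe set per gene, namely its brightest by mean over the 6 arrays. Of the 44, 43 were measured, among 18193 genes named on the array, and Ccnb1 was not analysed here. In each of 3 samples, the RNA came from a granulosa cell tumor of a Smad1/5/8 mutant mouse. Smad1, Smad5 and Smad8 are transcription factors that act below bone morphogenetic protein receptors. The tumors had no treatment, were kept overnight in an RNA storage solution and then frozen, and the series' text calls them independent. The other 3 samples were granulosa cells isolated from C57BL/6J;129S5/SvEvBrd females at 21 days of age, after 44 to 46 hours of priming with PMSG, a gonadotropin that drives follicle growth. Each of these wild-type samples pooled cells of 2 or 3 females. The sources used here do not give how the Smad genes were mutated, nor the tumor mice's strain, sex or age.

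Signals are linear array intensities, scaled so that each array had a trimmed mean of 500, and between 22565 and 25013 probe sets per array reached a signal of 100. The tumors were tissue and the wild-type samples isolated cells, priming is stated for the wild-type mice alone, and storage and array software also differed, so none of this can be told apart from genotype. Of 14 granulosa cell markers on the array, 14 reached 100 on every array of both groups; their summed signal lay between 124286 and 125966 in tumors and between 199330 and 227813 in wild-type samples. Of these 14, 5 were lower in tumors (Fshr, Inhba, Inhbb, Fst and Nr5a1), 2 were higher (Amh and Wt1) and 7 did not pass. Inhba, an inhibin and activin subunit, read 273, 548 and 1241 in tumors and 28210, 20090 and 30810 in wild-type samples, and Inhbb read 1710, 2436 and 2272 against 30470, 32200 and 37530, so these subunits made up much of the difference in the sum. Markers of other cells also differed: 14 of 14 macrophage genes, 11 of 11 smooth muscle and pericyte genes, 9 of 11 fibroblast genes and 5 of 12 endothelial genes that were tested were higher in tumors. The summed macrophage signal lay between 16367 and 19417 in tumors and between 2709 and 3685 in wild-type samples. That of smooth muscle and pericyte genes lay between 21387 and 39794 in tumors and between 5935 and 7542 in wild-type samples. That of fibroblast genes lay between 45186 and 70608 in tumors and between 14541 and 17732 in wild-type samples, and that of endothelial genes between 6621 and 14635 against 2413 to 3471. Of 6 tested oocyte genes, 5 were lower in tumors, with sums of 460 to 759 in tumors and 1010 to 1748 in wild-type samples. Among all tested genes 12.6% were called lower and 14.5% higher. The oocyte genes Zp1, Zp2, Zp3 and Dppa3 were below 100 in each tumor, so they passed the filter on low signals through the wild-type samples alone. Likewise, Ptprc, Des, Fap, Vwf and the lymphocyte gene Ighm, among the higher markers, were below 100 in each wild-type sample and passed through the tumors alone. Of the markers looked for, the oocyte gene Bmp15 and the lymphocyte genes Cd3e and Cd2 stayed below 100 on all 6 arrays. In bulk RNA, fewer cells of a type and less RNA per cell cannot be told apart, and the part of these markers in the results below was not tested.

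The comparison asked how the mitotic program differed between tumors and wild-type granulosa cells. Of the 43 measured genes, 30 were lower in tumors, 0 were higher and 13 did not pass at an adjusted p under 0.05 (limma over 11611 genes). Among all tested genes 12.6% were called lower and 14.5% higher, together 27.2%. The 43 log2 fold changes, tumor minus wild-type, ran from -1.68 to -0.24 with a median of -0.87, a 1.83-fold difference, beside a median of -0.00 over all tested genes, of which 50.4% had a fold change below 0. All 3 tumors lay below all 3 wild-type samples in 33 of the 43 genes, against 22.6% of all tested genes, and 10 genes overlapped. In 0 of the 43 did all tumors lie above, against 23.7% of all tested genes. Of the 43 genes, 17 were called lower and at least 2-fold lower, against 5.28% of all tested genes. Each of the 43 reached a signal of 100 on all 6 arrays, the lowest single value being 137.7, so the filter on low signals removed none.

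The number of calls depended on single samples. Without wild-type replicate 1, 10 genes passed, each of them among the 30, when 5.7% of all genes were called lower. The 10 calls that held whichever sample was left out were those of Bub1, Mad2l1, Ttk, Ccnb2, Birc5, Cdca8, Cenpa, Tpx2, Espl1 and Pttg1. The count was 15 without wild-type replicate 3 (7.58% of all genes lower) and 15 without tumor replicate 2 (9.01%), and with no filter on low signals, where 18193 genes shared the adjustment, it was 16 (5.47% of all genes lower). Without tumor replicate 3 it was 36 (12.1%), with 28 of the 30 kept, Prc1 and Foxm1 lost and 8 gained. All 43 fold changes stayed below 0 in each of these fits. Scaled to bacterial hybridisation controls in place of the trimmed mean, the median of all genes moved to -0.98 and that of the 43 genes to -1.92, when 43 of them and 65.0% of all genes were called lower.

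**Figure D1:**
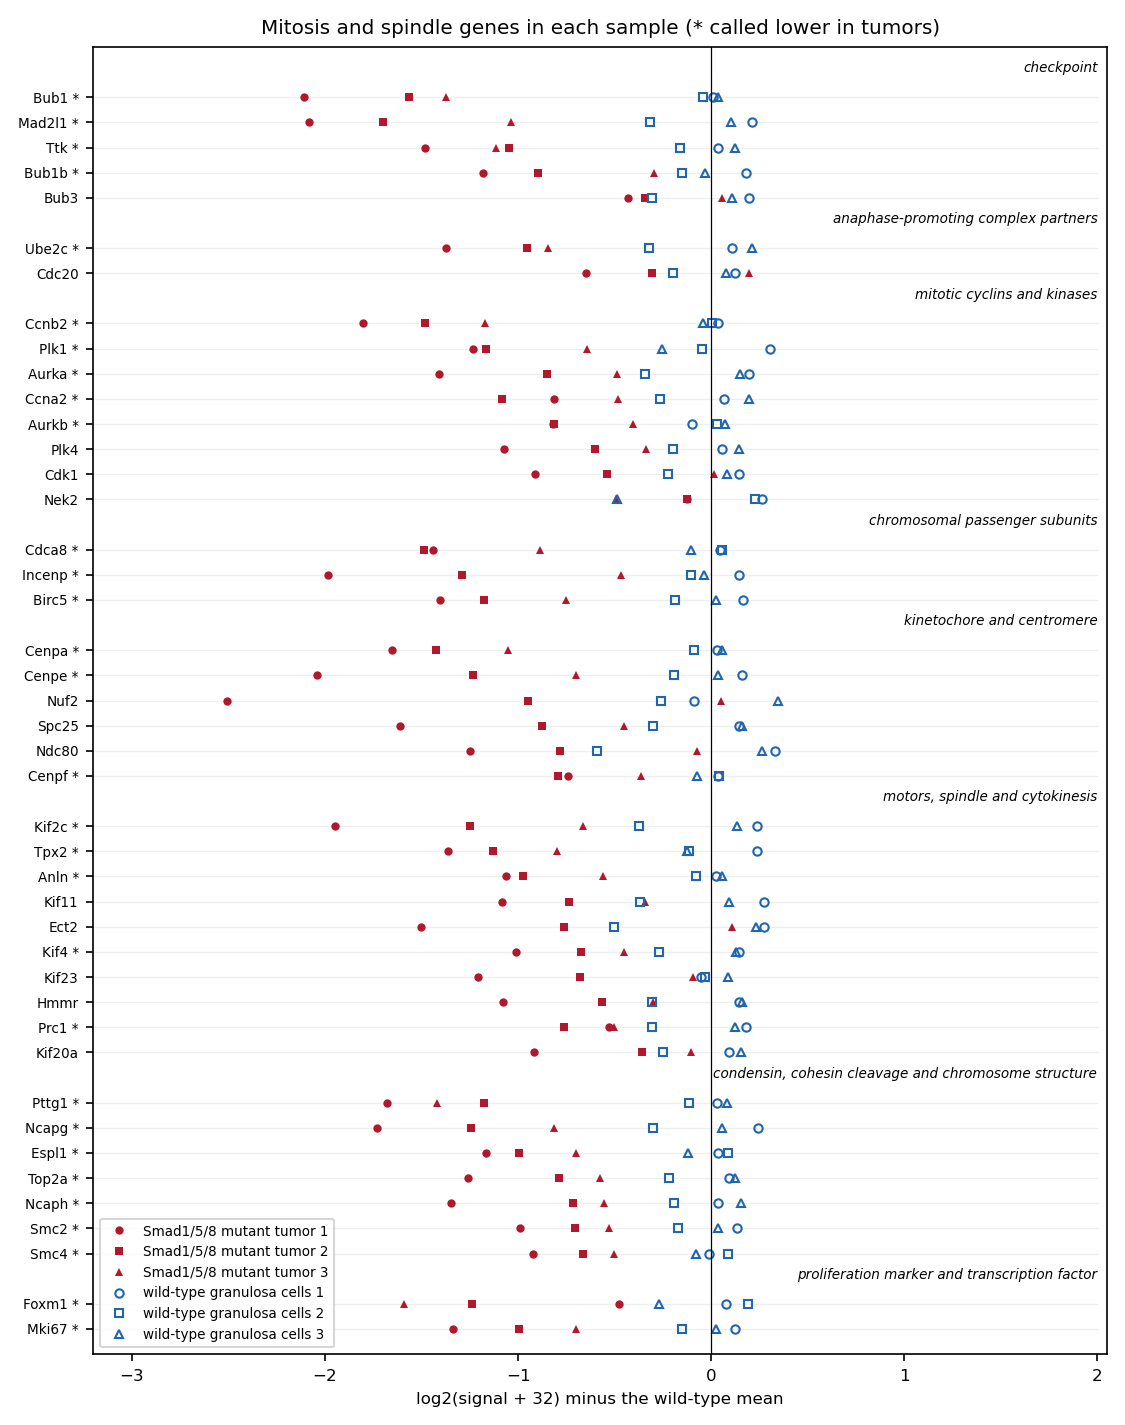
Difference of log2(signal + 32) from the wild-type mean for each of 43 mitosis and spindle genes (rows, grouped by role) in each sample; filled red symbols are the 3 tumors, open blue symbols the 3 wild-type samples, and an asterisk marks a gene called lower. All 3 tumors lie left of all 3 wild-type samples in 33 rows, and tumor 3 (triangle) lies nearest to the wild-type samples in most rows.

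**Figure D2:**
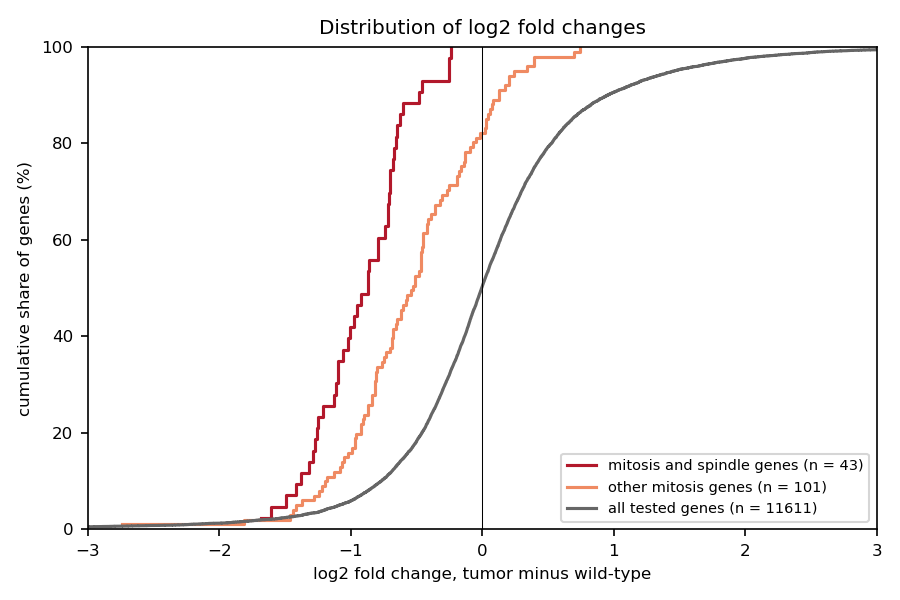
Cumulative share of genes (%) against the log2 fold change, tumor minus wild-type, shown from -3 to 3, for the 43 mitosis and spindle genes, 101 other mitosis genes and all 11611 tested genes. The curve of the 43 genes ends at -0.24, left of 0, while that of all genes crosses 0 near its midpoint.

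Many genes of this program are known to carry certain promoter elements, which are shown here as description. The members were chosen by name as mitosis genes, so motif shares among them describe that list. The cell cycle genes homology region (CHR; TTTGAA or TTCGAA) binds the MuvB core complex, which represses transcription in resting and G1 cells and activates it in G2 and M phase with B-Myb and Foxm1. The CCAAT box (CCAAT) binds the activator NF-Y. Promoters of 36 of the 43 genes, 39 promoters in all, were found in a table made from RefSeq on GRCm38.p6, each running from 250 bases before the gene's start to 50 after it. Searched on both strands, a CHR stood in 31 of the 39 (79.5%), and a CCAAT box in 30 (76.9%). Among 32851 promoters of the same length in the table, 19.2% held a CHR and 37.4% a CCAAT box. Both motifs stood in 28 of the 39 (71.8%), against 7.52% of all promoters. Promoters of the other mitosis genes described further on, 97 in all, lay between these, with a CHR in 45.4%, a CCAAT box in 57.7% and both in 27.8%. A window of 50 bases on either side of the start, chosen after the positions were seen, held a CHR in 28 of the 39 (71.8%) and in 5.31% of all promoters. Neither motif's letters were found in the windows of Birc5, Mad2l1, Ncaph, Nuf2, Plk4 and Pttg1, among which are both called and uncalled genes. Among uncalled genes, a CHR stood in promoters of Bub3, Cdc20, Cdk1, Ect2, Hmmr, Kif11, Kif23, Ndc80 and Spc25, and not in those of Nek2, Nuf2 and Plk4. These counts describe letters in a window and are not binding data. The part of either motif in the lower signals was not tested. The 6 promoters below belong to the most strongly lowered called gene with a CHR in each of 6 roles; capitals mark the CHR and CCAAT letters on either strand, and each runs 5′ to 3′ on the gene's own strand.
Bub1 promoter, chr2:127831810-127832109, minus strand: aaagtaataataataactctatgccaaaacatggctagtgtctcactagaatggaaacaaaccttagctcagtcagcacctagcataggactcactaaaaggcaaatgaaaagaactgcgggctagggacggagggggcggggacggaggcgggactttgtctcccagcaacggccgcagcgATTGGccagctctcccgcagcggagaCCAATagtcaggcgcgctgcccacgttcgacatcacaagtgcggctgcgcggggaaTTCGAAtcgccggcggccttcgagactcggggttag
Ccnb2 promoter, chr9:70421505-70421804, minus strand: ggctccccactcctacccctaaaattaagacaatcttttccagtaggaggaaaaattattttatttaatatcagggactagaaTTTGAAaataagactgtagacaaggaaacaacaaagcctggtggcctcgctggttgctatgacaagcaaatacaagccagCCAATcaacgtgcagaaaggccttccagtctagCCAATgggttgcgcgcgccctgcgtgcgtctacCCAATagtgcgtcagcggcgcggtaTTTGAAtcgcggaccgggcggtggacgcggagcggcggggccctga
Cenpa promoter, chr5:30666636-30666935, plus strand: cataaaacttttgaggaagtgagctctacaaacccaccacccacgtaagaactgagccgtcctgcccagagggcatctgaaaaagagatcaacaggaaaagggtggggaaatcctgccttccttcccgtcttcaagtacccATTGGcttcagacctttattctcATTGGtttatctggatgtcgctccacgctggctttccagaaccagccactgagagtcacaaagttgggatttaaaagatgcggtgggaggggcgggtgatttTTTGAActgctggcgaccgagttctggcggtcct
Cdca8 promoter, chr4:124936868-124937167, minus strand: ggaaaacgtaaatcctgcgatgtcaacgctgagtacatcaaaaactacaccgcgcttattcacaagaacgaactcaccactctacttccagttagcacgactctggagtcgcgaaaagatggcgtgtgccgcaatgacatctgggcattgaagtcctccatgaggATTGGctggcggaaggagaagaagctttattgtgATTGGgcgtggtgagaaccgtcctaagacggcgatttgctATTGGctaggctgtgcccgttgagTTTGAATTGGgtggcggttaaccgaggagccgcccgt
Ncapg promoter, chr5:45669675-45669974, plus strand: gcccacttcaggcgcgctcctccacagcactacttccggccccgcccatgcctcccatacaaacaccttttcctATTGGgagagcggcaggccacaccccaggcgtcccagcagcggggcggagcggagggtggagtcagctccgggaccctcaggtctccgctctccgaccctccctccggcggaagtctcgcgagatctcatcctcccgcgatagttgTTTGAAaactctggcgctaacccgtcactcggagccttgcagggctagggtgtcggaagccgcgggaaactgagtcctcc
Kif2c promoter, chr4:117178723-117179022, minus strand: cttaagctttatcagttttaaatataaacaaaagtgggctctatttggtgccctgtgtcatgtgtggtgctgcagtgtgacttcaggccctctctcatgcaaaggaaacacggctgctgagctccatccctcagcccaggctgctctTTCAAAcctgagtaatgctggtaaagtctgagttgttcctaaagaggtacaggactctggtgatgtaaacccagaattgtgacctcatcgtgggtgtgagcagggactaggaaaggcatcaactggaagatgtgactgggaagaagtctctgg

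Across these promoters the spacing differed. In bases from the gene's start, Bub1 had a CHR beginning at 15 and CCAAT letters at -68 and -42. Ccnb2 had CCAAT letters at -87, -54 and -21 and a CHR at 5, with another CHR at -167. In Cenpa the CHR began at 17 and CCAAT letters at -109 and -86. Cdca8 held CCAAT letters at -85, -51, -11 and 19, the last sharing a base with the CHR at 14. Ncapg had a CHR at -30 and CCAAT letters at -176. The Kif2c window had a single CHR, at -103, and no CCAAT letters.

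**Figure D3:**
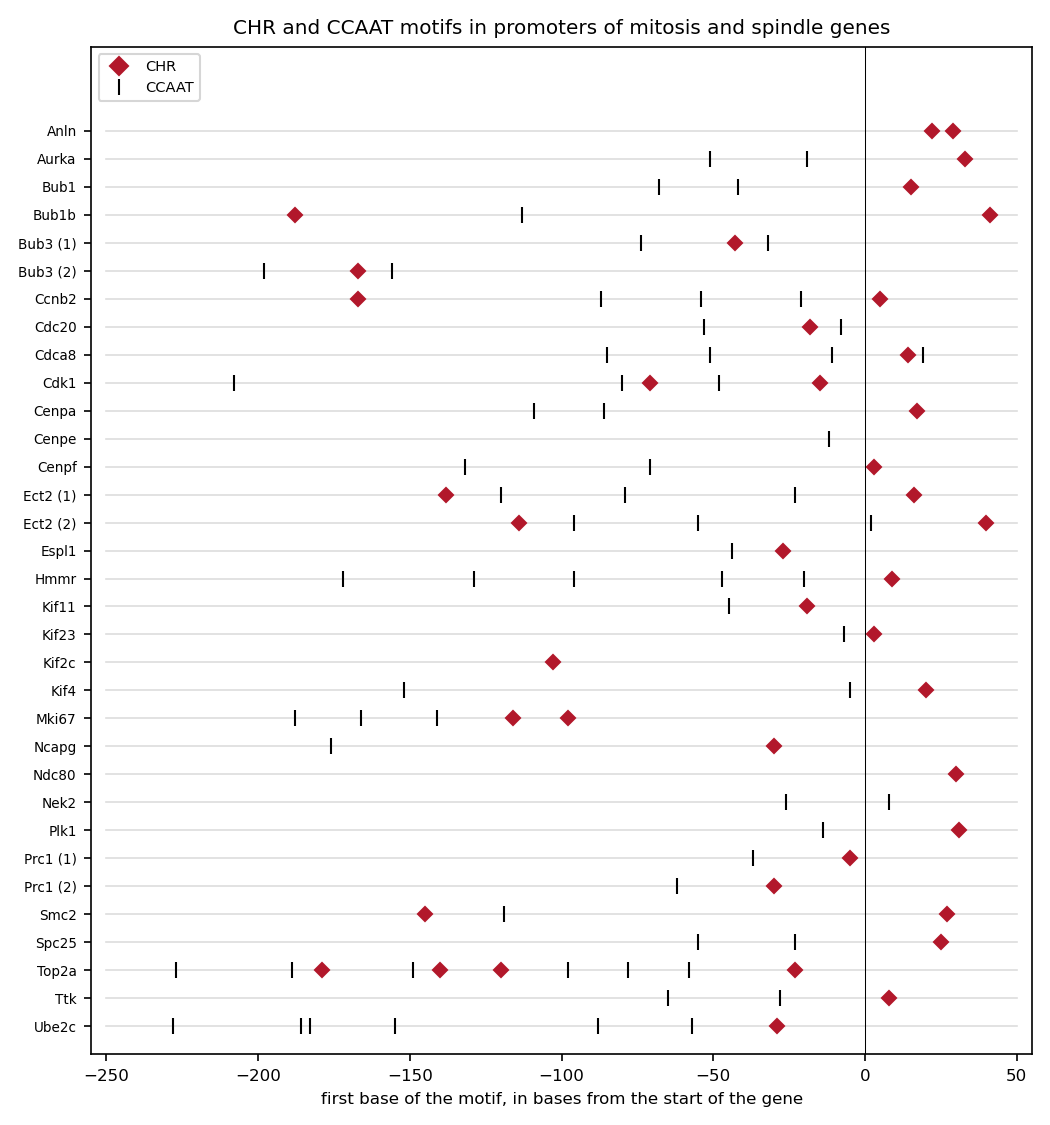
Position of CHR (red diamonds) and CCAAT letters (black ticks) in the 33 of 39 promoters that hold either, as the first base of the motif in bases from the gene's start (0 on the axis); numbers after a name mark alternative starts of a gene. Most diamonds lie within 50 bases of the start.

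The spindle checkpoint was lower in tumors in 4 of its 5 genes. Over all tested genes, 12.6% were called lower, and all 3 tumors lay below all 3 wild-type samples in 22.6%. These shares stand beside each role count below. Bub1, a checkpoint kinase of the kinetochore whose promoter is given above, read 635, 941 and 1080 in the tumors and 2867, 2759 and 2918 in the wild-type samples. The log2 fold change was -1.68, the lowest of the 43 (SE 0.21, adjusted p = 0.00224 with limma). Mad2l1, which forms the inhibitory complex on Cdc20, read 855, 1124 and 1798 in tumors and 4328, 2985 and 4006 in wild-type samples (log2 fold change -1.61, SE 0.29, adjusted p = 0.00816). Both genes thus had tumor values well apart from the wild-type ones, and the tumors themselves differed. Ttk, the kinase that recruits the other checkpoint proteins, read 283, 394 and 374 in tumors and 870, 754 and 927 in wild-type samples (log2 fold change -1.21, SE 0.17, adjusted p = 0.00372). Bub1b, the BubR1 subunit of the mitotic checkpoint complex, read 577, 711 and 1096 in tumors and 1535, 1215 and 1323 in wild-type samples. Its call was the weakest of the 30 (log2 fold change -0.79, SE 0.24, adjusted p = 0.0499) and held without tumor replicate 3 (0.00983) but in none of the other 5 fits that leave out a sample, where it reached 0.158. Bub3, the partner of Bub1 and BubR1, overlapped between the groups at 3683, 3928 and 5191 in tumors and 5719, 4030 and 5370 in wild-type samples (log2 fold change -0.24, SE 0.20, adjusted p = 0.421). The checkpoint target Cdc20, which activates the anaphase-promoting complex, also overlapped: 3373, 4282 and 6089 in tumors and 5783, 4621 and 5611 in wild-type samples. Its log2 fold change was -0.25 (SE 0.23, adjusted p = 0.455), and tumor replicate 3 had the highest value of the 6. Ube2c, the ubiquitin-conjugating enzyme of the same complex, was lower in every tumor, at 2145, 2877 and 3105 against 6053, 4488 and 6501 (log2 fold change -1.06, SE 0.21, adjusted p = 0.0122; 0.0536 without wild-type replicate 1).

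**Figure D4:**
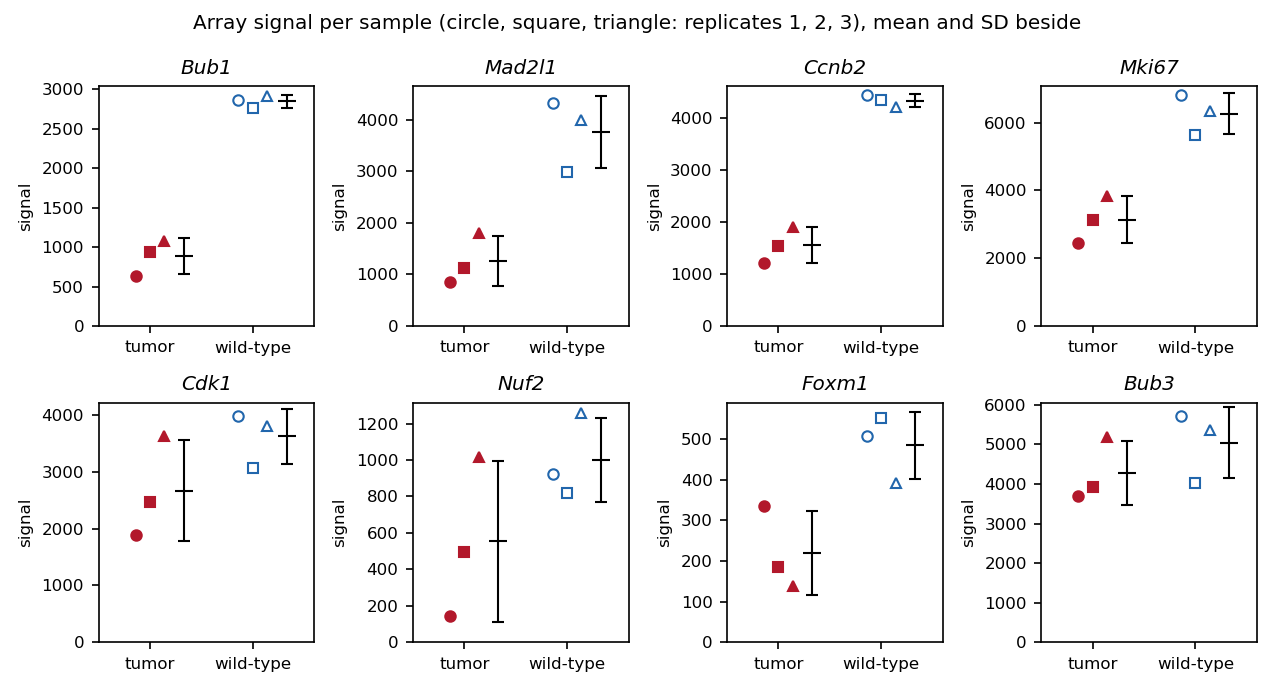
Array signal of 8 genes in the 3 tumors (left, filled red) and the 3 wild-type samples (right, open blue), on linear axes from 0, with the mean and SD beside each group. Bub1, Mad2l1, Ccnb2, Mki67 and Foxm1 do not overlap between the groups, while Cdk1, Nuf2 and Bub3 do.

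Of the 8 measured cyclin and kinase genes, 5 were lower in tumors and 3 did not pass. Ccnb2, a B-type cyclin that partners Cdk1, read 1220, 1533 and 1913 in tumors and 4456, 4353 and 4222 in wild-type samples (log2 fold change -1.49, SE 0.19, limma adjusted p = 0.00238). Cdk1 itself, the kinase that drives entry into mitosis, read 1894, 2460 and 3630 in tumors and 3972, 3070 and 3809 in wild-type samples. Tumor replicate 3 lay within the wild-type range for Cdk1, and the log2 fold change of -0.48 (SE 0.25, adjusted p = 0.197) passed without that tumor (adjusted p = 0.04) and in none of the other 5 fits that leave out a sample. It also passed with array weights (0.0357) and with scaling to hybridisation controls (0.0003). Ccna2, the cyclin of S and G2 phase, read 1497, 1239 and 1895 in tumors and 2789, 2207 and 3056 in wild-type samples (log2 fold change -0.79, SE 0.21, adjusted p = 0.0297). Plk1, the Polo kinase of spindle assembly and mitotic exit, read 496, 522 and 764 in tumors and 1504, 1171 and 1009 in wild-type samples (log2 fold change -1.02, SE 0.22, adjusted p = 0.0169). The Aurora kinases were both lower. Aurka, which acts at spindle poles, read 517, 777 and 1009 in tumors and 1642, 1118 and 1584 in wild-type samples (log2 fold change -0.92, SE 0.27, adjusted p = 0.0433). Aurkb, the kinase of the chromosomal passenger complex, read 579, 582 and 783 in tumors and 975, 1068 and 1101 in wild-type samples (log2 fold change -0.68, SE 0.17, adjusted p = 0.0237). Plk4, which starts centriole duplication, did not overlap (779, 1092 and 1321 in tumors, 1744, 1455 and 1852 in wild-type samples) but missed the threshold (log2 fold change -0.67, SE 0.22, adjusted p = 0.0591; 0.0298 without tumor replicate 3). Nek2, a kinase of centrosome separation, had tumor values of 533, 533 and 407 and wild-type values of 707, 691 and 407, with a log2 fold change of -0.25 (SE 0.24, adjusted p = 0.475). The Plk1 call was lost without wild-type replicate 1 (0.0661) and without tumor replicate 2 (0.0507). Those of Ccna2 and Aurka were lost in 4 of the 6 fits that leave out a sample, up to 0.102 and 0.14 without wild-type replicate 1, and that of Aurkb in 5, up to 0.0804 without wild-type replicate 3.

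The remaining 3 subunits of the chromosomal passenger complex, which corrects wrong attachments and guides cell division, were each lower in tumors without overlap. Cdca8, also called borealin, read 800, 771 and 1189 in tumors and 2298, 2313 and 2064 in wild-type samples (log2 fold change -1.27, SE 0.20, limma adjusted p = 0.00479). Birc5, also called survivin, read 952, 1122 and 1518 in tumors and 2892, 2261 and 2620 in wild-type samples (log2 fold change -1.11, SE 0.21, adjusted p = 0.00903). For both, the highest tumor lay well under the lowest wild-type sample. Incenp, the scaffold that binds Aurora B, varied more among tumors, at 931, 1523 and 2719, against 4175, 3503 and 3679 in wild-type samples (log2 fold change -1.25, SE 0.35, adjusted p = 0.039). Its call held without tumor replicate 3 (0.00592) and was lost in the other 5 fits that leave out a sample, up to 0.12.

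Among 6 kinetochore and centromere genes, 3 were lower in tumors and 3 did not pass. Cenpa, the histone H3 variant that marks centromeres, read 830, 978 and 1275 in tumors and 2742, 2520 and 2788 in wild-type samples (log2 fold change -1.38, SE 0.18, limma adjusted p = 0.00298). Cenpe, a kinetochore kinesin that helps chromosomes congress, read 235, 434 and 644 in tumors and 1193, 928 and 1093 in wild-type samples (log2 fold change -1.32, SE 0.33, adjusted p = 0.0242). Cenpf, a large kinetochore protein, read 888, 854 and 1163 in tumors and 1543, 1549 and 1427 in wild-type samples (log2 fold change -0.63, SE 0.16, adjusted p = 0.0284). The Cenpe call was lost in 4 of the 6 fits that leave out a sample, up to 0.0856, and that of Cenpf in 5, up to 0.102, both without wild-type replicate 1. The other 3 genes encode subunits of the Ndc80 complex, the main microtubule attachment of the kinetochore, and in each of them tumor replicate 3 came close to or into the wild-type range. Nuf2 read 147, 494 and 1019 in tumors and 923, 817 and 1258 in wild-type samples, a 6.95-fold difference between tumor replicates 3 and 1 and a log2 fold change of -1.13 (SE 0.59, adjusted p = 0.191). Ndc80 read 216, 311 and 528 in tumors and 710, 359 and 676 in wild-type samples (log2 fold change -0.70, SE 0.36, adjusted p = 0.189). Spc25 read 495, 845 and 1147 in tumors and 1750, 1275 and 1770 in wild-type samples, without overlap, but it just missed the threshold (log2 fold change -0.98, SE 0.30, adjusted p = 0.0512). Without tumor replicate 3, Nuf2 (0.0385) and Spc25 (0.0213) passed, and Ndc80 did not (0.0643).

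Of 10 genes of motors, spindle organisation and cytokinesis, 5 were lower in tumors. Tpx2, which activates Aurora A and nucleates microtubules around chromosomes, read 675, 798 and 1013 in tumors and 2113, 1647 and 1638 in wild-type samples (log2 fold change -1.10, SE 0.20, limma adjusted p = 0.0082). Kif2c, a kinesin that takes apart microtubule ends at centromeres, read 366, 613 and 940 in tumors and 1780, 1155 and 1655 in wild-type samples (log2 fold change -1.29, SE 0.34, adjusted p = 0.0293). Anln, an actin-binding protein of the cleavage furrow, read 1165, 1241 and 1661 in tumors and 2513, 2330 and 2560 in wild-type samples (log2 fold change -0.86, SE 0.17, adjusted p = 0.0122). None of these 3 overlapped between the groups. Kif4, a chromosome-bound motor of the spindle midzone, read 305, 393 and 465 in tumors and 719, 531 and 710 in wild-type samples (log2 fold change -0.71, SE 0.20, adjusted p = 0.0387). Prc1, which bundles midzone microtubules, read 1239, 1047 and 1259 in tumors and 2047, 1450 and 1963 in wild-type samples (log2 fold change -0.60, SE 0.18, adjusted p = 0.0471). The calls of Anln (0.0532), Kif2c (0.101), Kif4 (0.133) and Prc1 (0.164) were lost without wild-type replicate 1; those of Kif2c and Kif4 were lost in 4 of the 6 fits that leave out a sample and that of Prc1 in 5.

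The other 5 genes of that role did not pass, with log2 fold changes between -0.72 and -0.46. Kif11, the motor that pushes spindle poles apart, read 424, 547 and 730 in tumors and 1136, 716 and 996 in wild-type samples (log2 fold change -0.72, SE 0.25, limma adjusted p = 0.0707). Hmmr, a spindle-associated protein that also binds hyaluronan, read 459, 669 and 808 in tumors and 1111, 807 and 1127 in wild-type samples (log2 fold change -0.65, SE 0.24, adjusted p = 0.0862). In both, tumor replicate 3 reached just above wild-type replicate 2. Kif23, a kinesin of the midbody, did not overlap, at 502, 738 and 1121 in tumors and 1156, 1171 and 1276 in wild-type samples (log2 fold change -0.66, SE 0.27, adjusted p = 0.116). Kif20a, a cytokinesis motor, read 422, 638 and 767 in tumors and 885, 690 and 926 in wild-type samples (log2 fold change -0.46, SE 0.24, adjusted p = 0.192). Ect2, which activates RhoA at the cleavage site, spread widely in both groups, at 452, 778 and 1448 in tumors and 1624, 935 and 1581 in wild-type samples (log2 fold change -0.72, SE 0.42, adjusted p = 0.237). Without tumor replicate 3, Kif11 (0.0368), Hmmr (0.0474), Kif23 (0.0187) and Ect2 (0.0495) passed, and Kif20a did not (0.0877).

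The 7 genes of condensin, cohesin cleavage and chromosome structure were each lower in tumors, against 12.6% of all tested genes. None overlapped, while all tumors lay below all wild-type samples in 22.6% of all tested genes. Pttg1, or securin, which holds the cohesin-cutting protease inactive until anaphase, read 2067, 2938 and 2481 in tumors and 6834, 6175 and 7077 in wild-type samples (log2 fold change -1.42, SE 0.17, limma adjusted p = 0.00204). Espl1, or separase, the protease itself, read 298, 339 and 424 in tumors and 727, 755 and 650 in wild-type samples (log2 fold change -0.95, SE 0.17, adjusted p = 0.00774). Thus the inhibitor and the protease it binds were both lower. The condensin subunit Ncapg read 303, 439 and 600 in tumors and 1287, 873 and 1124 in wild-type samples (log2 fold change -1.26, SE 0.26, adjusted p = 0.0138). Its partner Ncaph read 925, 1451 and 1629 in tumors and 2469, 2105 and 2681 in wild-type samples (log2 fold change -0.87, SE 0.23, adjusted p = 0.0313). The ATPase subunits shared by condensins I and II showed smaller fold changes by their brightest probe sets. Other tested probe sets gave log2 fold changes of -1.06 and -1.21 for Smc2 and -0.70 and -0.91 for Smc4. For Ncapg and Ncaph they gave -1.75 and -0.68, and differences between genes were not tested. The Smc2 probe set with -1.21 was below 100 in each tumor and passed the filter through the wild-type samples alone. Smc2 read 1474, 1804 and 2044 in tumors and 3255, 2626 and 3031 in wild-type samples (log2 fold change -0.74, SE 0.17, adjusted p = 0.0208), and Smc4 read 3238, 3882 and 4341 against 6130, 6557 and 5847 (log2 fold change -0.70, SE 0.16, adjusted p = 0.0187). Top2a, the topoisomerase that untangles sister chromatids, read 2620, 3646 and 4233 in tumors and 6746, 5425 and 6897 in wild-type samples (log2 fold change -0.87, SE 0.21, adjusted p = 0.0232). Without wild-type replicate 1 the calls of Ncapg (0.058), Ncaph (0.1), Smc2 (0.0866), Smc4 (0.0713) and Top2a (0.0866) were lost. Those of Smc2 and Ncaph were lost in 4 of the 6 fits that leave out a sample, and those of Smc4 and Top2a in 3.

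The last 2 genes were also lower in tumors. Mki67, the Ki-67 antigen that coats mitotic chromosomes and marks cycling cells, read 2451, 3119 and 3838 in tumors and 6816, 5637 and 6360 in wild-type samples (log2 fold change -1.01, SE 0.20, limma adjusted p = 0.0108; 0.0502 without wild-type replicate 1). Foxm1, a transcription factor that activates many of the other genes here, read 336, 185 and 138 in tumors and 508, 553 and 392 in wild-type samples. Its log2 fold change was -1.10 (SE 0.30, adjusted p = 0.0315), and its call held without tumor replicate 1 (0.00863) and was lost in the other 5 fits that leave out a sample, up to 0.101. By this brightest probe set, Foxm1 ran against most other members within the tumor group, with its highest value in tumor replicate 1. Other tested probe sets of Foxm1 gave other orders, at 271, 308 and 176 and at 217, 197 and 227 in tumor replicates 1, 2 and 3. Neither was called lower (log2 fold change -0.58, limma adjusted p = 0.113 over probe sets, and -0.45, 0.16).

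The tumors differed among themselves in a way that most members shared. Tumor replicate 3 had the highest signal of the 3 tumors in 39 of the 43 genes (90.7%), against 37.7% of all tested genes, and tumor replicate 1 the lowest in 37 (86.0%), against 35.2%. Tumor replicate 3 was not the highest for Ttk, Pttg1, Nek2 and Foxm1. The median difference from the wild-type mean was -1.25 in tumor replicate 1, -0.90 in replicate 2 and -0.50 in replicate 3 on the log2 scale, while over all tested genes these medians were -0.00, 0.01 and 0.01. In 9 genes, tumor replicates 1 and 2 lay below every wild-type sample and replicate 3 did not: Bub3, Cdc20, Cdk1, Ndc80, Nuf2, Kif11, Kif20a, Hmmr and Ect2. The ratio of tumor replicate 3 to replicate 1 ran from 0.41 for Foxm1 to 6.95 for Nuf2, with a median of 1.59. With arrays scaled to hybridisation controls, tumor replicate 3 was highest in 15 of the 43, so the order of the tumors depends on the scaling. Tumor replicate 3 also had the lowest summed signals of smooth muscle and pericyte genes (21387, against 37850 in tumor replicate 1 and 39794 in replicate 2) and of fibroblast genes (45186, against 61308 and 70608). Its macrophage sum of 16367 was close to that of replicate 2 (16580) and below that of replicate 1 (19417). The granulosa sums lay close together, at 125966, 125113 and 124286 in tumor replicates 1, 2 and 3. In the same sequence, the endothelial sums were 6621, 14635 and 8189 and the oocyte sums 581, 460 and 759. The lymphocyte sums were 8840, 279 and 1388, with Ighm at 8275 in replicate 1. The part of these markers in the order of the tumors was not tested.

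The wild-type samples were closer together. The SD on the log2 scale was larger in tumors than in wild-type samples in 39 of the 43 genes (90.7%), against 61.5% of all tested genes. Its median over the 43 was 0.35 in tumors and 0.19 in wild-type samples, and over all tested genes 0.24 and 0.19. Each wild-type sample pooled 2 or 3 females, and no pooling is stated for the tumors, so the SDs of the groups measure unlike units. The part of pooling in this difference was not tested. Wild-type replicate 2 had the lowest wild-type value in 32 of the 43 genes (74.4%; 34.0% of all tested genes), with a median difference from the wild-type mean of -0.19, against 0.12 in replicate 1 and 0.08 in replicate 3. For Actb, the log2 ratio of 3′ over 5′ control probe sets, which reflects RNA integrity, was 0.570, 0.888 and 0.966 in the tumors and 0.328, 0.669 and 0.342 in the wild-type samples. The groups overlapped for Actb, with wild-type replicate 2 above tumor replicate 1. The same ratio for Gapdh also overlapped, at -0.469, -0.244 and -0.382 in the tumors and -0.395, -0.324 and -0.455 in the wild-type samples. A link of either ratio to the members was not tested.

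**Figure D5:**
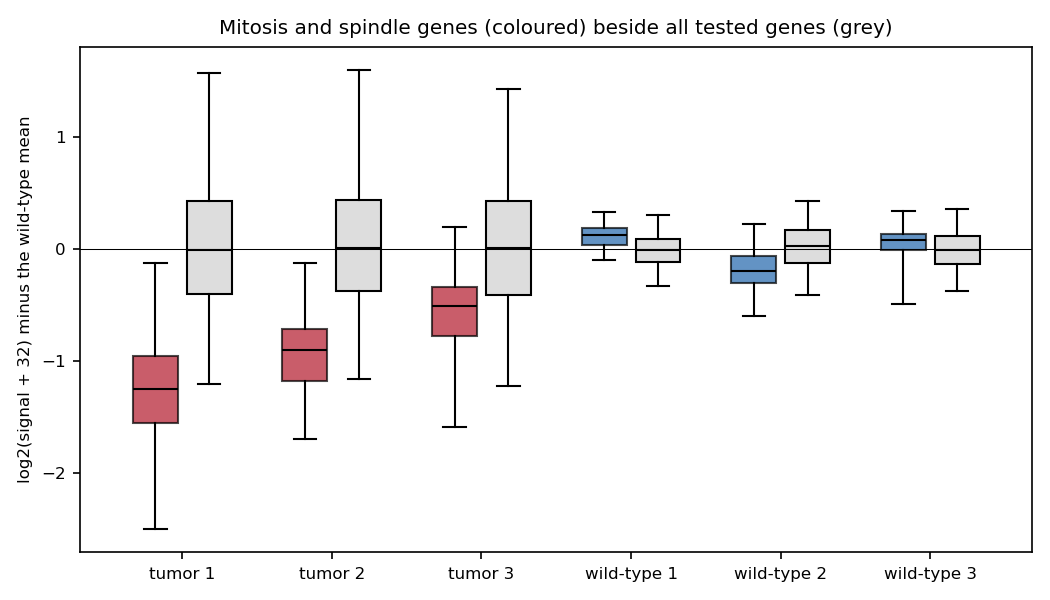
Difference of log2(signal + 32) from the wild-type mean in each sample, for the 43 mitosis and spindle genes (coloured boxes, whiskers over the full range) and all 11611 tested genes (grey boxes, whiskers from the 5th to the 95th percentile); boxes span the quartiles and the line is the median. The coloured medians are -1.25, -0.90 and -0.50 in the tumors, while the grey medians lie near 0 in each sample.

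Other probe sets of the same genes mostly had fold changes in the same direction, though many of them were not called. The 43 genes had 104 probe sets, of which 88 passed the filter. When each probe set was tested, 47 were lower, 0 were higher and 41 did not pass. These counts include the 43 brightest probe sets used above. Of the 45 other tested probe sets, 19 were lower. Of all 24168 tested probe sets, 11.9% were called lower and 11.1% higher. Among the 47, dim probe sets of Bub3, Cenpa, Cenpe and Smc2 were below 100 in each tumor and passed the filter through the wild-type samples alone. Of the 88, 1 had a fold change above 0, a dim Cdc20 probe set that read 219, 297 and 206 in tumors and 270, 31.4 and 385 in wild-type samples (log2 fold change 0.43, SE 0.64). Nek2, which did not pass by its brightest probe set, was lower by its next one, at 207, 268 and 247 in tumors and 413, 445 and 455 in wild-type samples (log2 fold change -0.79, SE 0.16, limma adjusted p = 0.0142 over probe sets). Ccna2 and Aurkb fell further by their other probe sets, with log2 fold changes of -1.24 and -1.04. The 4 tested probe sets of Incenp gave -1.25, -0.31, -1.46 and -0.50, so its size depends on the probe set. Bub3 gave -0.24 and -0.14 by its 2 brightest probe sets and -1.45 by a dim one. That dim probe set read 54.8, 27.2 and 54.5 in tumors, each below 100, and 162, 220 and 151 in wild-type samples. Of the 43 probe sets used, 12 are of the kinds (_s_at and _x_at) whose probes can match transcripts of several genes, among them those of Incenp, Kif2c, Cdc20, Bub3, Pttg1 and Cdca8. With such probe sets left out, an alternative chosen after seeing the data, 26 of 42 genes were lower, against 12.5% of all genes tested that way. The calls of Bub1b (log2 fold change -0.60, adjusted p = 0.0532), Incenp (-0.31, 0.257), Ncaph (-0.68, 0.0526) and Prc1 (-0.57, 0.16) were then lost and that of Nek2 was gained, while Aurkb had no other kind of probe set. Kif2c, Cdca8 and Pttg1 stayed lower, with log2 fold changes of -1.46, -1.12 and -1.06.

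Beyond the members, 105 other mitosis genes were listed by role, also with earlier results of these data known, and 101 were tested. Of these 37 were lower in tumors, 1 was higher and 63 did not pass, with a median log2 fold change of -0.53, beside 12.6% lower and 14.5% higher among all tested genes. Of the 101, 83 had a fold change below 0 (50.4% of all tested genes) and all 3 tumors lay below the wild-type samples in 59 (22.6%). By role, 9 of 28 kinetochore and centromere genes, 9 of 21 genes of motors, spindle and cytokinesis, 8 of 17 kinases, cyclins and phosphatases, 7 of 18 genes of the checkpoint and anaphase-promoting complex and 4 of 17 cohesin and condensin genes were lower. Without wild-type replicate 1 the lower genes numbered 17 (5.7% of all genes lower), and without wild-type replicate 3 they numbered 23 (7.58%).

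Nek6, a kinase that acts on mitotic kinesins, had the lowest value of that list, at 346, 443 and 393 in tumors and 2670, 2960 and 2794 in wild-type samples (log2 fold change -2.74, SE 0.15, limma adjusted p = 0.000187). Cdc25c, the phosphatase that activates Cdk1, read 107, 134 and 216 in tumors and 604, 588 and 599 in wild-type samples (log2 fold change -1.81, SE 0.22, adjusted p = 0.0022). Both were lower in tumors by more than any of the 43 members. Among kinetochore genes, Ska1, a microtubule-binding subunit, fell by 1.46 on the log2 scale (SE 0.30, adjusted p = 0.0133), Cenpi, a subunit of the constitutive centromere network, by 1.24 (SE 0.28, adjusted p = 0.0179) and Cenpn, another of its subunits, by 0.69 (SE 0.15, adjusted p = 0.0176). Leaving out wild-type replicate 1 ended the calls of Ska1 (0.0552), Cenpi (0.0695) and Cenpn (0.0793). Kntc1, which brings checkpoint proteins to kinetochores, fell by 1.37 (SE 0.24, adjusted p = 0.00731), and Anapc7, a subunit of the anaphase-promoting complex, by 1.28 (SE 0.17, adjusted p = 0.00292). Anapc5, of the same complex, fell by 0.47 (SE 0.14, adjusted p = 0.0404), a call lost in 5 of the 6 fits that leave out a sample, up to 0.14. Dlgap5, a spindle assembly factor, fell by 1.44 (SE 0.27, adjusted p = 0.0101) and Tacc3, a spindle protein bound by Aurora A, by 1.18 (SE 0.17, adjusted p = 0.00405). Kpna2, an importin of spindle factors, fell by 0.58 (SE 0.17, adjusted p = 0.0465; up to 0.16 without wild-type replicate 1, and lost in 4 of 6 such fits). Haspin, the histone H3 kinase that places the passenger complex, was below 100 in each tumor, at 82.3, 79.0 and 72.9. It read 135, 114 and 178 in wild-type samples and passed the filter on low signals through those samples alone. Its signal was at least 1.4-fold lower in tumors (limma adjusted p = 0.0311, lost in 5 of the 6 fits that leave out a sample, up to 0.0926).

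Cohesin and condensin genes included the list's single higher call. Wapl, which releases cohesin from chromosomes, read 1708, 1973 and 2350 in tumors and 4288, 4406 and 4021 in wild-type samples (log2 fold change -1.08, SE 0.16, limma adjusted p = 0.00445). Ncapd2, a condensin I subunit, read 1088, 1215 and 1254 in tumors and 2369, 2142 and 2282 in wild-type samples (log2 fold change -0.92, SE 0.14, adjusted p = 0.00436). Mau2, a subunit of the cohesin loader, was higher, at 632, 728 and 590 in tumors and 342, 396 and 388 in wild-type samples (log2 fold change 0.74, SE 0.15, adjusted p = 0.012; 0.0599 without wild-type replicate 1). Averaged over its probe sets, Mau2 had a log2 fold change of -0.48, and with scaling to hybridisation controls it had -0.24, so its direction depends on these choices.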

How the data were processed

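RNA from 6 mouse samples was measured on Affymetrix arrays, 1 per sample, per the labels' protocols. The deposited values are linear intensities, made by the authors with GCOS (tumors) and MAS5 (wild-type), per the submitters' processing notes; the sources used here do not give versions or background correction. Of 45101 probe sets, 34945 had 1 gene symbol in GEO's platform annotation. Each array was scaled to a trimmed mean of 500 (2% left out at each end), and log2(signal + 32) was tested. Probe sets were kept where 3 or more arrays reached 100; bacterial controls not added to the sample reached 101. The brightest passing probe set stood for each of 11611 genes. Fold changes on this scale understate those of dim genes. Groups were compared with limma 3.58.1 (R 4.3.3; lmFit, eBayes, 2-sided), with calls at p under 0.05 after Benjamini-Hochberg adjustment across the genes tested; values are 3 arrays per group, whose number limits precision. SE is limma's. "At least" folds set values below 100 to 100. The fit was tested on simulated data. Wild-type samples are pools, so p-values measure the spread between these samples. Members and lists were chosen with earlier results of these data known. Named genes were all members and, from each list of other mitosis genes, the 2 called genes with the lowest and the 1 with the highest fold change. Lymphocyte markers were tested in 1 of 7 cases (Ighm, higher, which passed the filter through the tumors alone). Alternatives were pseudocounts of 1 and 100, no filter or a filter at 200, quantile or no rescaling, hybridisation controls, an intensity trend, array weights, averaged probe sets, a replicate block, leaving out each sample and, chosen after seeing the data, leaving out _s_at and _x_at probe sets. Python 3.11.15 and matplotlib 3.10.9 were used.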

Additional observations from a re-analysis of the deposited data

How the results depend on the processing

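The number of members lower in tumors was 30, ranged from 10 to 36 when 1 sample was left out, and was 16 with no filter. Over the alternatives with all samples it otherwise lay between 25 (replicate block) and 43 (hybridisation controls), 0 members were higher under any alternative run, and all fold changes of members stayed below 0. Scaled to hybridisation controls, the members' median was -1.92, 7544 genes were lower and 416 higher, 96 of the other mitosis genes were lower and 0 higher, and tumor replicate 3 was highest in 15 members. Leaving out 1 sample moved the number of all genes called lower in tumors (1468) to between 662 and 1409, moved the number of all genes called higher in tumors (1686) to between 866 and 1704, and gave 17 to 45 lower and 0 to 1 higher other mitosis genes. With array weights 56 of these were lower. With a pseudocount of 100, a filter at 200, an intensity trend or the replicate block, 2 of them were higher, and with averaged probe sets 0, where Mau2 had -0.48, as it had -0.24 with hybridisation controls. The cause of these shifts was not tested, except that without the filter more genes share the adjustment. Same-numbered tumors and wild-type samples did not deviate together (correlations over genes of -0.0449, 0.0276 and 0.09), so the numbers give no pairing; with the replicate block 25 members, 1138 of all genes (with 1464 higher) and 29 other mitosis genes were lower. With 3 arrays per group, members missing the threshold are not shown to be alike in the groups.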
